A study of Homo sapiens with 8 samples.

Results

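The comparison asked whether knocking down MEPCE changed RNA levels differently in 2 derivatives of U2OS, a human osteosarcoma cell line. For each gene the effect of the MEPCE siRNA (siMePCE against the control siRNA, siNC) was measured in each line, and the Flp-In effect was subtracted from the AsiSI effect. A positive log2 difference therefore means a higher siMePCE effect in AsiSI, and a negative one a lower effect there. All genes that passed a count filter were members, 43321 of 80311.

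The 8 libraries formed 4 groups of 2, each line with siNC or siMePCE, and a number after a group's name is its replicate. Flp-In stands for U2OS-Flp-In-TREx cells, grown with Zeocin and Blasticidin. AsiSI stands for the U2OS line that the labels call AiD-DiVA AsiSI-ER, grown with G418. That line carries AsiSI, a restriction enzyme fused to an oestrogen receptor domain, which 4-hydroxytamoxifen (4-OHT) brings into action to cut DNA. Every group received siRNA in 2 rounds, at 0 and 48 h, and was lysed at 96 h. Both AsiSI groups, controls included, received 300 nM 4-OHT for 4 h from 92 h, and 4-OHT is not stated for Flp-In. Line and 4-OHT therefore cannot be told apart in any value here. Separate cultures are not stated for the replicates, and p-values therefore cover only the spread between libraries, which may be technical.

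MePCE places a methyl cap on the 5' end of 7SK, a small nuclear RNA, and stays bound to it. 7SK, with HEXIM and LARP7, holds the kinase complex P-TEFb (CDK9 with a cyclin T) in an inactive state. Released P-TEFb phosphorylates RNA polymerase II and lets paused polymerase elongate. The study as titled concerns MePCE in homologous recombination and in the resolution of R-loops at DNA breaks.

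Library totals ran from 41431776 to 53695626 counts. Mitochondrial genes took 5.23% to 5.91% of counts in siNC and 8.24% to 10.6% in siMePCE libraries, in both lines. CPM is the count scaled to library size by TMM, but the marker levels in this paragraph were scaled to library totals alone. Of 10 mesenchymal markers 8 reached a mean of 1 CPM, among them VIM, CD44, SPARC and RUNX2, with summed levels of 1233 to 2286 CPM. The epithelial markers EPCAM, CDH1, KRT8 and KRT18 also reached 1 CPM, and the list summed in Flp-In to 251 to 254 CPM under siNC and 207 to 232 under siMePCE, and in AsiSI to 133 to 139.8 and 149.95 to 163. Blood markers summed to 5.79 to 9.98 CPM, endothelial markers to 2.62 to 7.36 CPM and liver markers to 0.0483 to 0.521 CPM, whereas 3 neural genes summed to 27.5 to 31.7 CPM in Flp-In and 29.2 to 51.9 in AsiSI. Of the markers tested, 1 of 10 mesenchymal and 2 of 5 epithelial ones were called higher in AsiSI, and their part in the results below was not tested. In these bulk samples, fewer cells of a type and less RNA per cell cannot be told apart.

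The targeted gene checks the labels. MEPCE (in hg19, ENSG00000146834, chromosome 7, 100025945 to 100031749, plus strand) measured 39.9 and 40.1 CPM under siNC and 5.35 and 4.84 under siMePCE in Flp-In, against 29.3 and 29.3 under siNC and 3.65 and 2.30 under siMePCE in AsiSI. Both siMePCE groups lay far below both siNC groups, and the effects were -2.97 in Flp-In and -3.30 in AsiSI on the log2 scale. Their difference was -0.33 (SE 0.219, edgeR adjusted p = 0.477), so no difference in knockdown was called. RN7SK, the 7SK RNA, measured 11312 and 10908 CPM under siNC and 2405 and 2089 under siMePCE in Flp-In, against 7744 and 7965 under siNC and 1595 and 1600.3 under siMePCE in AsiSI. Its effects were -2.31 and -2.30, with a difference of 0.01 (SE 0.101, edgeR adjusted p = 0.981). CDK9, chosen after its values were seen like HEXIM1 and LARP7, had effects of -1.08 in Flp-In and -1.24 in AsiSI on the log2 scale (difference -0.17, SE 0.166, edgeR adjusted p = 0.662). For HEXIM1 and LARP7 the differences were -0.19 and -0.02 (SE 0.149 and 0.185), neither called. Counts of a gene overlapping MEPCE were 1.08 times its own, and a row for the same RNA held 1.00 times those of RN7SK. For HEXIM1 and LARP7 this ratio was 1.14 and 0.938.

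Of 23 genes on the 7SK and P-TEFb list, 1 was called (4.41% were called over all genes tested), MLLT3, a subunit of the super elongation complex. It measured 37.8 and 38.2 CPM under siNC and 33.3 and 34.8 under siMePCE in Flp-In, against 47.5 and 50.4 under siNC and 60.01 and 69.9 under siMePCE in AsiSI (edgeR log2 difference 0.57, SE 0.141, adjusted p = 0.0211). MLLT3 lost its call without Flp-In siNC 1, siNC 2, siMePCE 1 or siMePCE 2, or AsiSI siNC 1 or siMePCE 2 (adjusted p = 0.0522 to 0.0964). The list's median difference was -0.17, against -0.02 over all genes tested and -0.10 at a mean of 20 to 100 CPM. For protein-coding genes of 5 to 50 kb at that level it was -0.16, so the list lies near the background.

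Across all genes the siMePCE effect differed between the lines for 1912 of 43321 (4.41%) in edgeR, with 1127 higher in AsiSI (2.6%) and 785 lower (1.81%). Within the lines, siMePCE itself changed 17711 genes in Flp-In (40.9%) and 16531 in AsiSI (38.2%). The higher differences were most often genes that fell in Flp-In and were not called in AsiSI (386), or that were not called in Flp-In and rose in AsiSI (310). A further 190 fell in both lines, 138 fell in Flp-In and rose in AsiSI, and 103 rose in both. Among the lower differences, 279 rose in Flp-In and were not called in AsiSI, and 203 were not called in Flp-In and fell in AsiSI. Another 131 fell in both, 110 rose in both, 61 rose in Flp-In and fell in AsiSI, and 1 was called in neither. A call in 1 line alone does not show a difference, and these counts cover only genes for which the difference itself was called.

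The number of calls moved with single Flp-In libraries. Leaving out Flp-In siNC 1 or 2 gave 680 or 1006 calls, and leaving out Flp-In siMePCE 1 or 2 gave 975 or 1231. The share of calls that were higher in AsiSI was 58.9%. In other fits of all 8 libraries it ran from 53.7% with a replicate block to 60.7% with DESeq2 size factors, with 55.5% by DESeq2. Among genes without an overlapping gene of 0.1 of their counts it was 52.3%. Of differences no smaller than 1 in absolute log2 value, 605 of 775 were higher (78.1%).

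**Figure D1:**
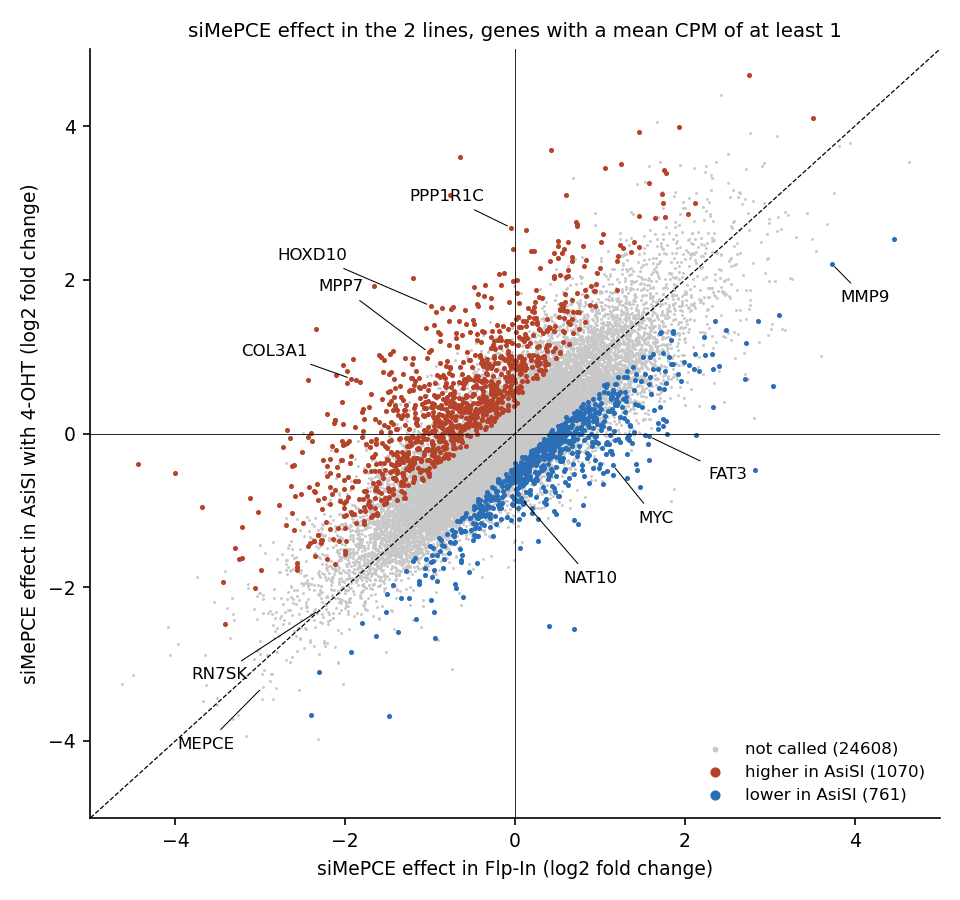
Effect of siMePCE on the log2 scale in Flp-In (x axis) and in AsiSI with 4-OHT (y axis) for the 26439 genes with a mean of at least 1 CPM. Each point is a gene, 1070 called higher in AsiSI in red, 761 called lower in blue and the rest in grey, with 4 genes outside the axes. Called genes lie off the dashed line of equal effects, whereas MEPCE and RN7SK lie close to it.

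The largest higher differences were chosen among 743 called coding or long noncoding genes with a mean of at least 5 CPM, no overlapping gene with at least 0.5 times their counts, and siMePCE minus siNC differences (4 per line, each siMePCE library against each siNC library) that did not overlap between the lines. Levels themselves may overlap. PPP1R1C (ENSG00000150722, chromosome 2, 182818968 to 182996125, plus strand), an inhibitor subunit of protein phosphatase 1, measured 16.8 and 13.9 CPM under siNC and 15.1 and 14.6 under siMePCE in Flp-In, against 2.48 and 3.16 under siNC and 15.6 and 20.5 under siMePCE in AsiSI (edgeR log2 difference 2.72, SE 0.233, adjusted p = 4.7e-07). Only the AsiSI siNC libraries were low, and siMePCE brought AsiSI to the level of the Flp-In groups. RUNX3 (ENSG00000020633, chromosome 1, 25226002 to 25291612, minus strand), a Runt-domain transcription factor, measured 17.3 and 17.6 CPM under siNC and 13.9 and 14.7 under siMePCE in Flp-In, against 3.17 and 3.54 under siNC and 10.7 and 10.2 under siMePCE in AsiSI (edgeR log2 difference 1.92, SE 0.203, adjusted p = 7.45e-06). It was likewise lowest in AsiSI siNC, and its AsiSI siMePCE libraries stayed below both Flp-In groups. For MIR9-1HG, the host gene of the microRNA miR-9-1, the levels were 9.77 and 10.4 CPM under siNC and 7.46 and 8.29 under siMePCE in Flp-In, against 1.33 and 1.71 under siNC and 5.99 and 5.63 under siMePCE in AsiSI (difference 2.29). LINC01705 and LINC01701, long noncoding RNAs, rose in AsiSI by 1.81 and 2.49 on the log2 scale and had effects of -0.44 and 0.63 in Flp-In (differences 2.25 and 1.86).

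In other genes the larger change was in Flp-In. COL3A1 (ENSG00000168542, chromosome 2, 189839099 to 189877472, plus strand), a fibrillar collagen, measured 7.60 and 7.39 CPM under siNC and 1.62 and 2.32 under siMePCE in Flp-In, against 6.46 and 5.67 under siNC and 9.82 and 10.04 under siMePCE in AsiSI (edgeR log2 difference 2.64, SE 0.264, adjusted p = 3.98e-06). It fell in Flp-In and rose in AsiSI. MAFTRR, a long noncoding RNA next to MAF, had effects of -1.21 in Flp-In and 0.73 in AsiSI (difference 1.94).

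Opposite movement, called in both lines, was seen in 69 genes of the kind described for the largest differences. Of these, 35 fell in Flp-In and rose in AsiSI. MPP7 (ENSG00000150054, chromosome 10, 28339922 to 28623415, minus strand), a scaffold protein of cell junctions, measured 70.3 and 70.2 CPM under siNC and 35.05 and 34.4 under siMePCE in Flp-In, against 97.9 and 93.5 under siNC and 207 and 192 under siMePCE in AsiSI (edgeR log2 difference 2.07, SE 0.120, adjusted p = 1.11e-09). It fell by 1.02 in Flp-In and rose by 1.06 in AsiSI on the log2 scale, with all 4 groups apart. GUCY1A2 (ENSG00000152402, chromosome 11, 106544745 to 106889202, minus strand), a subunit of soluble guanylate cyclase, measured 48.96 and 43.8 CPM under siNC and 27.2 and 27.1 under siMePCE in Flp-In, against 59.3 and 47.5 under siNC and 83.3 and 101 under siMePCE in AsiSI (edgeR log2 difference 1.56, SE 0.160, adjusted p = 5.41e-06). HOXD10, a homeobox transcription factor, measured 15.01 and 15.4 CPM under siNC and 7.20 and 8.07 under siMePCE in Flp-In, against 0.250 and 0.190 under siNC and 0.586 and 0.811 under siMePCE in AsiSI, so that AsiSI held little of it in either group (edgeR log2 difference 2.66, SE 0.381, adjusted p = 0.000231). RAC2, a small GTPase of blood cells, showed the same arrangement at 22.03 and 23.2 CPM under siNC and 12.9 and 11.6 under siMePCE in Flp-In, against 1.10 and 1.29 under siNC and 1.98 and 2.54 under siMePCE in AsiSI (difference 1.80).

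The other 34 rose in Flp-In and fell in AsiSI. KLF6 (ENSG00000067082, chromosome 10, 3818188 to 3827473, minus strand), a zinc-finger transcription factor induced early after stimulation, measured 39.6 and 38.6 CPM under siNC and 67.4 and 58.96 under siMePCE in Flp-In, against 94.6 and 91.1 under siNC and 73.96 and 55.3 under siMePCE in AsiSI (edgeR log2 difference -1.22, SE 0.158, adjusted p = 8.59e-05). Its siMePCE levels overlapped between the lines, while its siNC levels did not. PAPPA2, a protease that cleaves IGF-binding proteins, had effects of 0.58 and -0.49 (difference -1.06, edgeR adjusted p = 0.0422). PAPPA2 lost its call without Flp-In siNC 1, siNC 2 or siMePCE 2, or AsiSI siNC 2 or siMePCE 1 (adjusted p = 0.0653 to 0.194), and was not called by DESeq2 (adjusted p = 0.0954). LONRF2 was low in Flp-In, with 2.03 and 2.06 CPM under siNC and 4.09 and 4.32 under siMePCE in Flp-In, against 18.96 and 14.4 under siNC and 13.3 and 10.04 under siMePCE in AsiSI (difference -1.55).

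MYC (ENSG00000136997, chromosome 8, 128747680 to 128755197, plus strand), the growth-promoting transcription factor, measured 95.7 and 97.9 CPM under siNC and 224 and 205 under siMePCE in Flp-In, against 172 and 189 under siNC and 138 and 134 under siMePCE in AsiSI (edgeR log2 difference -1.56, SE 0.117, adjusted p = 1.12e-07). It rose in Flp-In and fell in AsiSI, with all 4 groups apart, and the overlapping CASC11 held 0.491 times its counts. MAX, its obligate partner, rose by 0.89 in Flp-In and 0.32 in AsiSI on the log2 scale (edgeR log2 difference -0.57, SE 0.115, adjusted p = 0.00492), and an overlapping gene held 1.01 times its counts. MAX lost its call without Flp-In siNC 1 (adjusted p = 0.0512). These were the 2 calls among 14 genes of the MYC and MAX network (14.3%). Over all genes 4.41% were called, and 9.83% at a mean of 20 to 100 CPM, so the share is no result about the list. Of 5 members without an overlapping gene of 0.1 of their counts, 0 were called.

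Among the lowest differences, MMP9, APOBEC3B and FAP rose in both lines, and more in Flp-In on the log2 scale. MMP9 (ENSG00000100985, chromosome 20, 44637547 to 44645200, plus strand), a secreted gelatinase, measured 5.46 and 6.13 CPM under siNC and 81.8 and 71.8 under siMePCE in Flp-In, against 2.48 and 3.46 under siNC and 15.6 and 11.98 under siMePCE in AsiSI (edgeR log2 difference -1.52, SE 0.222, adjusted p = 0.000264). APOBEC3B (ENSG00000179750, chromosome 22, 39378352 to 39388809, plus strand), a cytidine deaminase acting on single-stranded DNA, measured 12.7 and 12.9 CPM under siNC and 72.6 and 62.3 under siMePCE in Flp-In, against 16.04 and 12.5 under siNC and 30.9 and 21.5 under siMePCE in AsiSI (edgeR log2 difference -1.52, SE 0.208, adjusted p = 0.000159). The siNC levels of APOBEC3B overlapped between the lines, and Flp-In siMePCE was the highest group for both genes. FAP, a membrane serine protease of activated fibroblasts, measured 1.54 and 1.24 CPM under siNC and 8.84 and 9.49 under siMePCE in Flp-In, against 51.2 and 31.4 under siNC and 97.9 and 88.1 under siMePCE in AsiSI, so it stayed far higher in AsiSI throughout (difference -1.54). ADAMTS1, a secreted metalloprotease, measured 1.49 and 1.34 CPM under siNC and 4.82 and 2.85 under siMePCE in Flp-In, against 16.7 and 22.2 under siNC and 13.9 and 13.9 under siMePCE in AsiSI (edgeR log2 difference -1.92, SE 0.300, adjusted p = 0.000475). FAT3, an atypical cadherin, measured 5.52 and 5.55 CPM under siNC and 18.3 and 14.6 under siMePCE in Flp-In, against 33.8 and 25.8 under siNC and 29.6 and 28.6 under siMePCE in AsiSI (difference -1.61). SUSD5 measured 15.7 and 18 CPM under siNC and 19.9 and 20.7 under siMePCE in Flp-In, against 15.1 and 13.1 under siNC and 6.42 and 6.69 under siMePCE in AsiSI (difference -1.37). FAM135B and LINC02663 were the remaining 2, with differences of -1.55 and -1.70. FAM135B lost its call without Flp-In siNC 1 (adjusted p = 0.0759). LINC02663 lost its call without Flp-In siNC 1 or siMePCE 2 (adjusted p = 0.0595 to 0.0686).

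**Figure D2:**
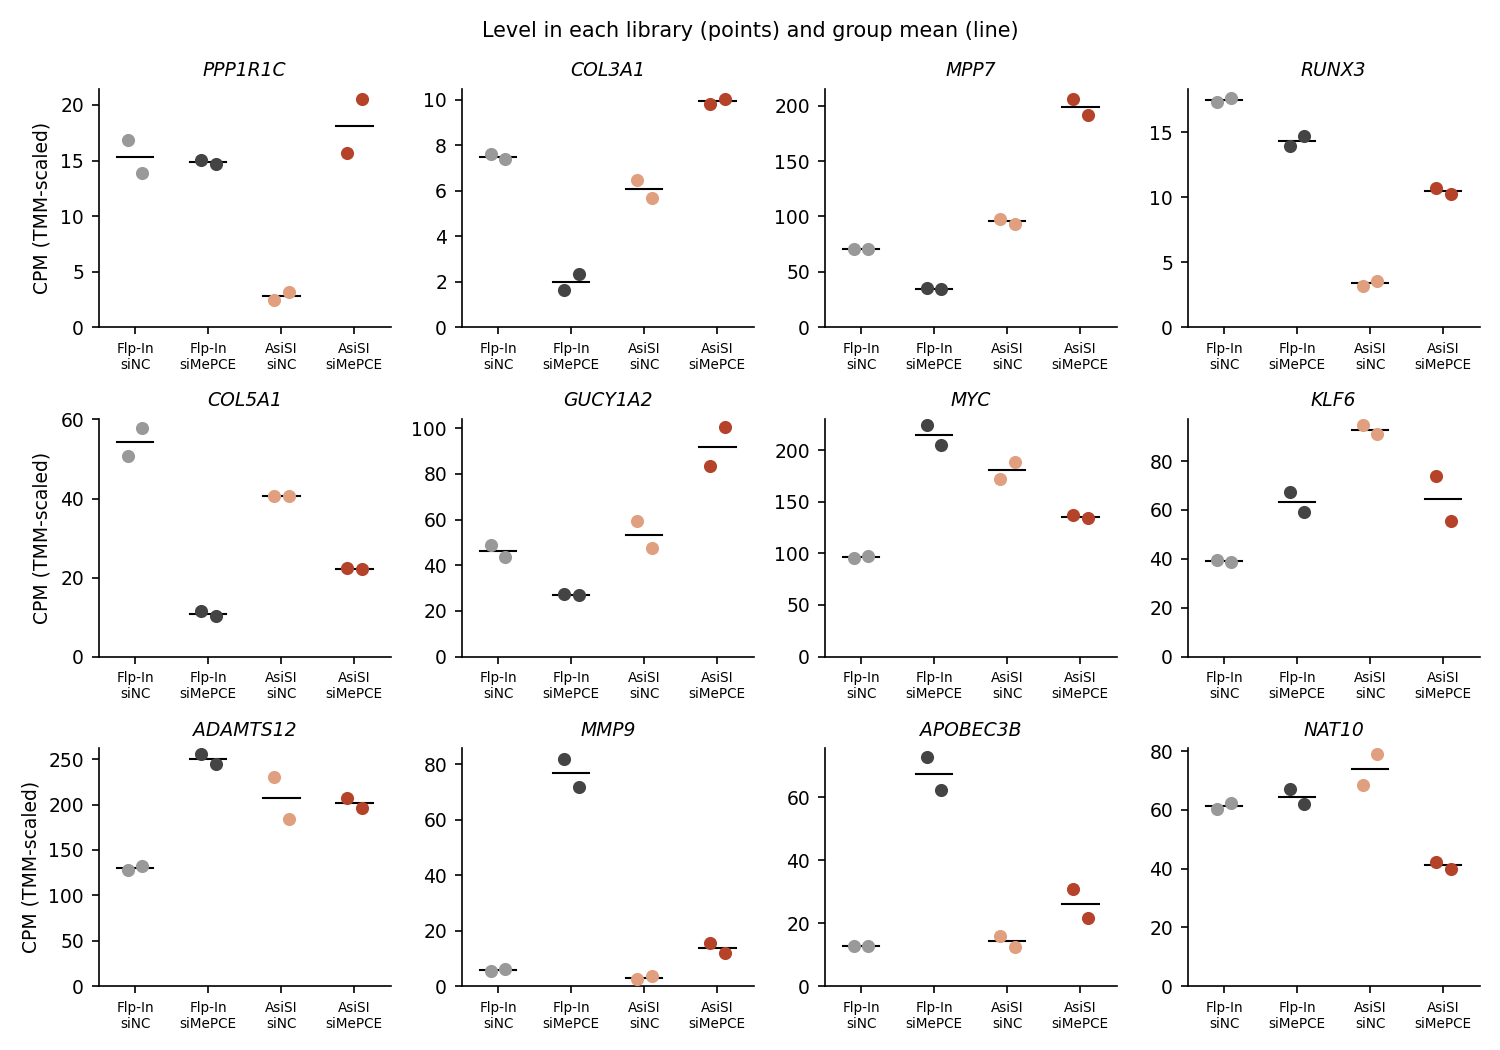
Level in CPM (y axis, from 0) of 12 genes in the 4 groups, with each library as a point and the group mean as a line. PPP1R1C and RUNX3 are lowest in AsiSI siNC, COL5A1 in Flp-In siMePCE, and MPP7, GUCY1A2, MYC and KLF6 move in opposite directions in the lines.

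With all 8 libraries, ribosome biogenesis was the list with the highest share of calls (45.5%), followed by collagens (33.3%). These genes make, modify and process ribosomal RNA in the nucleolus. Of 44 tested members 20 were called lower in AsiSI and 0 higher, against 1.81% lower over all genes, 5.33% at a mean of 20 to 100 CPM and 6.7% over 100 CPM, and 43 of 44 differences lay below 0. The median difference was -0.46, against -0.02 over all genes, -0.10 at a mean of 20 to 100 CPM and -0.11 over 100 CPM. For protein-coding genes of 5 to 50 kb at 20 to 100 CPM it was -0.16, and 6.16% of those were called lower. Within the lines, 21 members rose and 3 fell in Flp-In, and 5 rose and 18 fell in AsiSI. The list was chosen with an earlier result of these data on it known.

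The members called without dependence on any 1 library were NAT10, BYSL, WDR43 and DDX10. NAT10 (ENSG00000135372, chromosome 11, 34127164 to 34169217, plus strand), an acetyltransferase for ribosomal RNA, measured 60.4 and 62.2 CPM under siNC and 67.1 and 61.96 under siMePCE in Flp-In, against 68.4 and 79.1 under siNC and 42.4 and 39.8 under siMePCE in AsiSI (edgeR log2 difference -0.92, SE 0.136, adjusted p = 0.000297). AsiSI siMePCE was the only low group. BYSL (ENSG00000112578, chromosome 6, 41888967 to 41900788, plus strand), needed for the small subunit, measured 16.5 and 15.3 CPM under siNC and 30.4 and 27.2 under siMePCE in Flp-In, against 28.8 and 29.7 under siNC and 30.01 and 26.7 under siMePCE in AsiSI (edgeR log2 difference -0.90, SE 0.162, adjusted p = 0.00175). Here Flp-In siNC was the only low group, and the other 3 overlapped. WDR43, of the small-subunit processome, measured 208 and 199 CPM under siNC and 328 and 319 under siMePCE in Flp-In, against 182 and 173 under siNC and 195 and 189.9 under siMePCE in AsiSI (edgeR log2 difference -0.55, SE 0.109, adjusted p = 0.00401). DDX10, an RNA helicase, measured 104 and 102 CPM under siNC and 148 and 152 under siMePCE in Flp-In, against 137 and 151 under siNC and 134 and 149.6 under siMePCE in AsiSI (difference -0.57). Among the 20 were also the snoRNP proteins NOP56 (-0.74), NOP58 (-0.43) and DKC1 (-0.59) and the RNA polymerase I subunits POLR1B (-0.52) and POLR1C (-0.48). NCL and NPM1, abundant nucleolar proteins chosen after their values were seen, had differences of -0.34 (edgeR adjusted p = 0.0696) and -0.27 (adjusted p = 0.16). NCL was called by DESeq2 (adjusted p = 0.0211) and with a replicate block (adjusted p = 0.0155), NPM1 by neither (0.0871 and 0.0588).

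The count of 20 fell to 5 and 6 without Flp-In siNC 1 and 2, to 4 without Flp-In siMePCE 1, to 14 without AsiSI siNC 2 and to 6 without AsiSI siMePCE 2. The list then ranked below collagens, which had 6 of 24 calls without Flp-In siNC 1 and 7 without Flp-In siNC 2, Flp-In siMePCE 1 or AsiSI siMePCE 2, but not without AsiSI siNC 2. The ribosome biogenesis count was 29 with DESeq2. Among members without an overlapping gene of 0.1 of their counts, 8 of 21 were called lower (38.1%), against 4 of 10 cell junction genes (40%) called in either direction.

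A group of 7 called members hold CACGTG, an E-box that MYC with MAX can bind, between 250 bases before and 50 after the RefSeq start. Binding by any factor was not tested. The 7 members are shown because this hexamer was more frequent in promoters of genes called lower than in those called higher. Each window has 30 bases, 5' to 3' on the gene's strand, with CACGTG in capitals.
NAT10: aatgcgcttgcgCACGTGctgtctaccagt
BYSL: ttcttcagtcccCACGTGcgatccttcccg
PNO1: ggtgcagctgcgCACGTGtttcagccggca
WDR43: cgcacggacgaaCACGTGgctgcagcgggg
UTP20: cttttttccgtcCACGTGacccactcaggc
GNL2: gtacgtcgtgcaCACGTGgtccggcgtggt
UTP4: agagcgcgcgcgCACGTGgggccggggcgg
Genes overlapping PNO1 and UTP4 held 5.58 and 0.516 times their counts. These windows lie in GRCh38.p14 at chr11:34105602-34105631 (plus, NAT10), chr6:41921515-41921544 (plus, BYSL), chr2:68157885-68157914 (plus, PNO1), chr2:28894658-28894687 (plus, WDR43), chr12:101280083-101280112 (plus, UTP20), chr1:37595917-37595946 (minus, GNL2), chr16:69132621-69132650 (plus, UTP4).

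RefSeq promoters matched 16440 of the 43321 genes. CACGTG, which reads the same on both strands, was present in 9.1% of 13512 protein-coding promoters. It was present in 20.3% of the 448 whose genes were called lower and 5.44% of the 423 called higher. Genes under 1 CPM were called in 0.48%, so the shares were also taken at a mean of at least 20 CPM, where they were 10.8% of 6375, 23.5% of 361 and 5.07% of 217. In the ribosome biogenesis list 14 of 39 promoters held it, and 7 of the 16 whose genes were called. The other motifs, searched on both strands, are given for the same protein-coding promoters at a mean of at least 20 CPM. The TATA hexamer TATAAA was present in 5.43% of all, 9.22% of those called higher and 4.71% of those called lower. TGACTCA, the AP-1 site, was present in 2.98%, 1.84% and 3.88%, and the CRE TGACGTCA in 3.8%, 1.84% and 3.32%. The E2F-type TTTCGCGC was present in 1.16% of all, 0 of 217 called higher and 1.39% of those called lower, and the consensus NF-kB site in 0.157% of all and in 0 of the called. At all levels and for all gene types TATAAA was in 8.41%, 11.4% and 5.59% and TGACTCA in 4.15%, 4.48% and 3.52%. For protein-coding promoters at all levels TGACTCA was in 3.6%, 3.31% and 3.57%. Its order between called higher and called lower therefore turned only when other gene types were included. These are matches of letters in a window and were not tested.

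Lists that feed protein and nucleotide synthesis leaned the same way. Of 20 aminoacyl-tRNA synthetases, which charge tRNAs, 5 were called lower (25%) and 0 higher (median difference -0.38). Over all genes 1.81% were called lower, 5.33% at a mean of 20 to 100 CPM and 6.7% over 100 CPM. The median differences there were -0.02, -0.10 and -0.11. Protein-coding genes of 5 to 50 kb at 20 to 100 CPM had a median of -0.16, and 6.16% were called lower. IARS1, the isoleucyl enzyme, measured 314 and 307 CPM under siNC and 313 and 293 under siMePCE in Flp-In, against 348 and 346 under siNC and 230.3 and 217 under siMePCE in AsiSI (edgeR log2 difference -0.59, SE 0.108, adjusted p = 0.0019), so that only AsiSI siMePCE was low. AARS1 (difference -0.59) lost its call without Flp-In siNC 1 or siMePCE 1 (adjusted p = 0.0767 to 0.0788). YARS1 (difference -0.53) lost its call without Flp-In siNC 1 or siMePCE 1, or AsiSI siMePCE 1 (adjusted p = 0.0694 to 0.153). FARSB (difference -0.42) lost its call without Flp-In siNC 1, siNC 2, siMePCE 1 or siMePCE 2, or AsiSI siNC 1 or siMePCE 2 (adjusted p = 0.0857 to 0.197). LARS1 (difference -0.43) lost its call without Flp-In siNC 1, siNC 2 or siMePCE 1, or AsiSI siNC 2, siMePCE 1 or siMePCE 2 (adjusted p = 0.0734 to 0.211). The list's count was 1 without Flp-In siNC 1 or siMePCE 1 and 3 without Flp-In siNC 2 or AsiSI siMePCE 2, and 11 by DESeq2.

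In the list of nucleotide, polyamine and one-carbon synthesis, 5 of 22 were called lower (22.7%). Over all genes 1.81% were called lower, and 5.33% at a mean of 20 to 100 CPM. All 22 differences lay below 0 (median -0.32). The median was -0.02 over all genes and -0.10 at 20 to 100 CPM, and -0.16 for protein-coding genes of 5 to 50 kb at that level. GART, which catalyses several steps of purine synthesis, measured 122 and 122 CPM under siNC and 158 and 144 under siMePCE in Flp-In, against 118 and 125 under siNC and 91.1 and 89.1 under siMePCE in AsiSI (edgeR log2 difference -0.74, SE 0.118, adjusted p = 0.000563), and the overlapping SON held 3.13 times its counts. CTPS1, CTP synthase, measured 124 and 116 CPM under siNC and 136 and 128 under siMePCE in Flp-In, against 125 and 128 under siNC and 97.9 and 94.2 under siMePCE in AsiSI (difference -0.53). CTPS1 lost its call without Flp-In siNC 2 or siMePCE 1 (adjusted p = 0.0535 to 0.076). ODC1, the first enzyme of polyamine synthesis, had a difference of -0.50, and an overlapping gene held 0.624 times its counts. ODC1 lost its call without Flp-In siNC 1, siNC 2 or siMePCE 2, or AsiSI siNC 2 or siMePCE 1 (adjusted p = 0.0695 to 0.117). PPAT opens purine synthesis and MTHFD2 acts in mitochondrial one-carbon metabolism. PPAT (difference -0.46) lost its call without Flp-In siNC 1, siNC 2, siMePCE 1 or siMePCE 2, or AsiSI siNC 1 or siMePCE 2 (adjusted p = 0.0623 to 0.206). MTHFD2 (difference -0.41) lost its call without Flp-In siNC 1, siNC 2 or siMePCE 1, or AsiSI siNC 1, siNC 2, siMePCE 1 or siMePCE 2 (adjusted p = 0.0619 to 0.22). The count was 1 without Flp-In siNC 2, 2 without Flp-In siNC 1 or siMePCE 1 and 3 without AsiSI siNC 2 or siMePCE 2, and 8 by DESeq2.

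Host genes of small nucleolar RNAs gave 4 lower calls of 17 (23.5%), with 16 differences below 0. Over all genes 1.81% were called lower, and 5.33% at a mean of 20 to 100 CPM. For 12 of the 17 an overlapping gene held at least 0.5 times their counts. SNHG14, also called lower, was not called without the count filter (edgeR adjusted p = 0.0555), and overlapping UBE3A held 0.856 times its counts. SNHG14 (difference -0.40) also lost its call when any 1 library other than AsiSI siNC 2 was left out. Its differences with each library left out ran from -0.44 to -0.33. SNHG17 measured 25.99 and 27.4 CPM under siNC and 53.96 and 50.4 under siMePCE in Flp-In, against 23.5 and 25.4 under siNC and 27.9 and 25.4 under siMePCE in AsiSI (edgeR log2 difference -0.84, SE 0.150, adjusted p = 0.00157). It rose in Flp-In, by 0.97 on the log2 scale, and its effect in AsiSI was 0.12. SNHG3 rose in both lines, by 1.63 and 1.03 on the log2 scale. SNHG3 (difference -0.59) lost its call without Flp-In siNC 1 or siMePCE 1, or AsiSI siNC 2 or siMePCE 1 (adjusted p = 0.0593 to 0.168). The count was 1 without Flp-In siNC 1 or siMePCE 1 and 2 without Flp-In siNC 2 or AsiSI siMePCE 2. All 6 called rows of small RNAs were lower in AsiSI, and each lies in a longer gene with 10.3 to 174 times its counts, so they are not separate measurements. The 79 cytosolic ribosomal protein genes gave 0 calls in edgeR (19 at an unadjusted p under 0.05, 3 by DESeq2). Of their differences 75 lay below 0, with a median of -0.19, against -0.02 over all genes and -0.11 over 100 CPM. Protein-coding genes of 5 to 50 kb at 20 to 100 CPM had a median of -0.16, so this list's median is near that background.

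Of 29 genes of the unfolded protein and integrated stress response, 4 were called lower, against 1.81% of all genes and 5.33% of those at 20 to 100 CPM. ASNS, asparagine synthetase, measured 32.99 and 29.6 CPM under siNC and 60.97 and 60.3 under siMePCE in Flp-In, against 36.03 and 31.98 under siNC and 30.6 and 35.8 under siMePCE in AsiSI (edgeR log2 difference -0.99, SE 0.152, adjusted p = 0.00039), and an overlapping gene held 1.29 times its counts. It rose in Flp-In, and its effect in AsiSI was -0.03. CHAC1, which breaks down glutathione, measured 1.54 and 1.60 CPM under siNC and 4.05 and 4.26 under siMePCE in Flp-In, against 5.25 and 8.56 under siNC and 6.96 and 7.05 under siMePCE in AsiSI (difference -1.38). CHAC1 lost its call without Flp-In siNC 1, or AsiSI siNC 2 (adjusted p = 0.0767 to 0.0897). The amino acid transporter subunits SLC7A5 and SLC3A2 had differences of -0.48 and -0.47. A gene overlapping SLC7A5 held 0.719 times its counts. SLC7A5 lost its call without Flp-In siNC 1, siNC 2 or siMePCE 1 (adjusted p = 0.0508 to 0.121). SLC3A2 lost its call without Flp-In siNC 1, siNC 2 or siMePCE 1, or AsiSI siNC 2 or siMePCE 1 (adjusted p = 0.0774 to 0.24). Only 1 call was left without Flp-In siNC 1, and 2 without Flp-In siNC 2 or siMePCE 1 or AsiSI siNC 2.

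**Figure D3:**
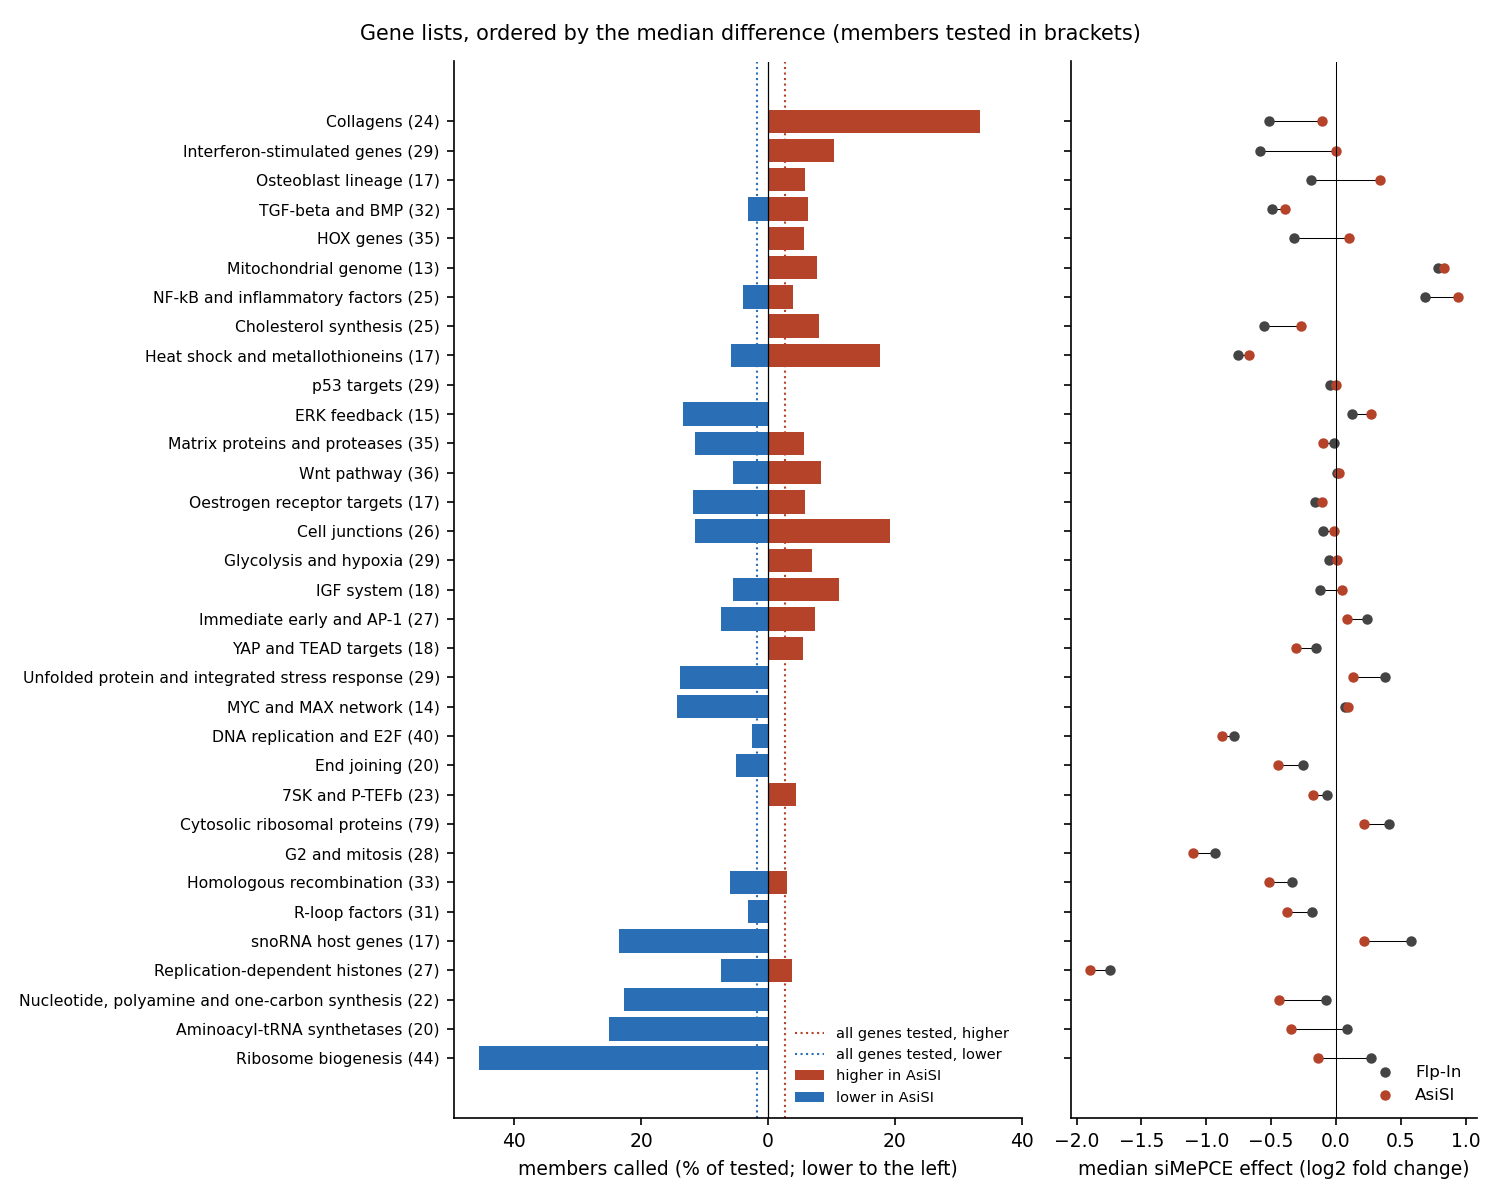
Share of tested members called higher (red, to the right) or lower in AsiSI (blue, to the left) for 33 gene lists, in % with the shares over all genes as dotted lines, and the median siMePCE effect in each line (log2). Ribosome biogenesis stands at the lower end with 20 of 44 called lower, and collagens at the upper end with 8 of 24 called higher.

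Collagens went the other way. Of 24 genes 8 were called higher in AsiSI (33.3%) and 0 lower, with a median difference of 0.37. Over all genes 2.6% were called higher, at a mean of 20 to 100 CPM 4.5%, and of protein-coding genes over 200 kb 10.2%. The median differences there were -0.02, -0.10 and 0.05. COL5A1 (length 203 kb) and COL11A1 (232 kb) are over 200 kb. In Flp-In 17 fell and 1 rose, and in AsiSI 11 fell and 5 rose. COL5A1 (ENSG00000130635, chromosome 9, 137533649 to 137736689, plus strand), a fibrillar collagen that regulates fibril width, measured 50.7 and 57.9 CPM under siNC and 11.4 and 10.3 under siMePCE in Flp-In, against 40.5 and 40.6 under siNC and 22.4 and 22.2 under siMePCE in AsiSI (edgeR log2 difference 1.46, SE 0.154, adjusted p = 7.62e-06). It fell in both lines, more in Flp-In. COL11A1, also fibrillar, measured 14.3 and 13.2 CPM under siNC and 6.22 and 5.89 under siMePCE in Flp-In, against 23.8 and 15.99 under siNC and 21.1 and 24.6 under siMePCE in AsiSI (edgeR log2 difference 1.38, SE 0.226, adjusted p = 0.000761), and only Flp-In siMePCE was low. COL1A1, the main bone collagen, measured 71.2 and 76.01 CPM under siNC and 32.8 and 23.5 under siMePCE in Flp-In, against 109 and 113 under siNC and 97.4 and 74.8 under siMePCE in AsiSI (difference 1.02). COL7A1, of anchoring fibrils, measured 9.14 and 11.4 CPM under siNC and 7.72 and 6.76 under siMePCE in Flp-In, against 4.52 and 4.72 under siNC and 9.01 and 7.79 under siMePCE in AsiSI (difference 1.37). COL8A1 had a difference of 0.89, with an overlapping gene at 0.791 times its counts. COL6A3 (difference 0.80) lost its call without Flp-In siNC 1 or siMePCE 2, or AsiSI siNC 2 or siMePCE 1 (adjusted p = 0.0558 to 0.139). COL6A2 (difference 0.50) lost its call without Flp-In siNC 1, siNC 2, siMePCE 1 or siMePCE 2, or AsiSI siNC 1, siMePCE 1 or siMePCE 2 (adjusted p = 0.0646 to 0.168). Leaving out each library gave 6 to 8 calls, and 5 of 14 members without an overlapping gene were called.

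**Figure D4:**
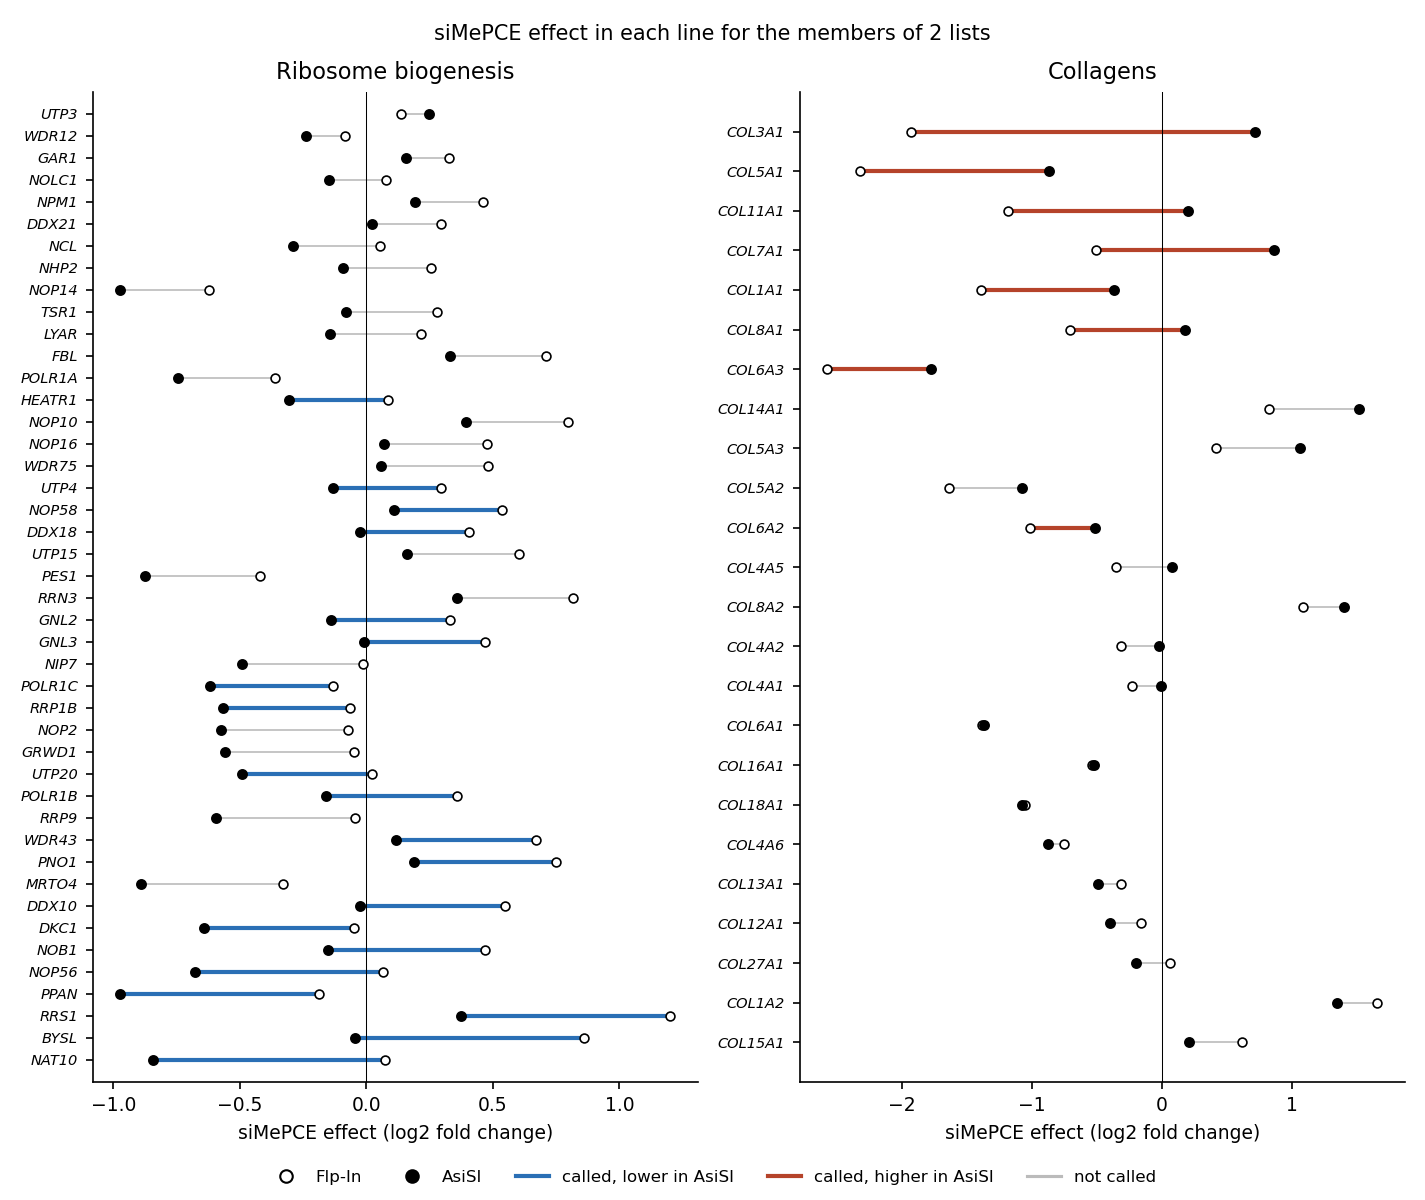
Effect of siMePCE (log2, x axis) in Flp-In (open circles) and AsiSI (filled circles) for each tested ribosome biogenesis gene (left) and collagen (right). Coloured lines mark called differences, 20 lower in the left panel and 8 higher in the right panel.

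Other matrix genes were mixed. Of 35 matrix proteins and proteases 2 were called higher and 4 lower, the latter ADAMTS1, MMP9, FAP and ADAMTS12. The share called was 17.1%, against 4.41% over all genes and 9.83% at a mean of 20 to 100 CPM. ADAMTS12, a metalloprotease, measured 128 and 133 CPM under siNC and 256 and 245 under siMePCE in Flp-In, against 231 and 184 under siNC and 208 and 196 under siMePCE in AsiSI (edgeR log2 difference -0.98, SE 0.130, adjusted p = 0.000103). SPP1 (difference 0.89) lost its call without Flp-In siNC 1, siNC 2, siMePCE 1 or siMePCE 2, or AsiSI siNC 1 or siMePCE 2 (adjusted p = 0.0525 to 0.108). FBN1 (difference 0.71) lost its call without Flp-In siNC 1, siNC 2, siMePCE 1 or siMePCE 2 (adjusted p = 0.0571 to 0.088). Among 26 genes of cell junctions, 5 were higher and 3 lower (30.8% called). CDH11, a cadherin of osteoblasts, measured 4.71 and 4.81 CPM under siNC and 18.8 and 17.95 under siMePCE in Flp-In, against 18.3 and 16.2 under siNC and 29.6 and 25.8 under siMePCE in AsiSI (edgeR log2 difference -1.26, SE 0.187, adjusted p = 0.000295), and CLDN1, a tight junction claudin, measured 4.10 and 3.25 CPM under siNC and 9.26 and 9.14 under siMePCE in Flp-In, against 119 and 82.2 under siNC and 69.1 and 65.5 under siMePCE in AsiSI (difference -1.90, overlapping gene at 1.15 times its counts). FAT3 was the third lower gene. These 3 held their calls when each library was left out in turn, while the count of 5 higher was 0 without Flp-In siMePCE 2, 1 without Flp-In siNC 1 or AsiSI siMePCE 1, and 2 to 4 without any other library.

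Among transcription factors of the immediate early and AP-1 list, 2 of 27 were called higher and 2 lower. The share called was 14.8%, against 4.41% over all genes and 9.83% at a mean of 20 to 100 CPM. FOSL2, a FOS-family subunit of AP-1, measured 134 and 147 CPM under siNC and 136 and 142 under siMePCE in Flp-In, against 207 and 226 under siNC and 118 and 122 under siMePCE in AsiSI (edgeR log2 difference -0.84, SE 0.117, adjusted p = 0.000178), so that it fell only in AsiSI. EGR1 measured 41.98 and 34.4 CPM under siNC and 20.2 and 16.9 under siMePCE in Flp-In, against 43.8 and 38.02 under siNC and 48.6 and 34.1 under siMePCE in AsiSI (edgeR log2 difference 1.06, SE 0.202, adjusted p = 0.00348), with Flp-In siMePCE as the low group. KLF6 was the other lower gene, and NR4A2, an orphan nuclear receptor, had a difference of 0.99. NR4A2 lost its call without Flp-In siNC 1 or siMePCE 2 (adjusted p = 0.0558 to 0.0791).

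Signalling lists gave few calls each. Shares called were 9.38% for TGF-beta and BMP, 13.9% for Wnt, 16.7% for IGF and 5.56% for YAP and TEAD targets. Over all genes 4.41% were called, and 9.83% at a mean of 20 to 100 CPM. The shares for TGF-beta and BMP and for YAP and TEAD are near these and are no result about a list. Among members without an overlapping gene of 0.1 of their counts, 0 of 14 Wnt and 0 of 7 IGF genes were called, against 5.46% of all such genes. Median differences of the Wnt and IGF lists were 0.04 and -0.02, against -0.02 over all genes. In the TGF-beta and BMP list 2 of 32 were higher and 1 lower. INHBA, the activin A subunit, measured 76.7 and 80.7 CPM under siNC and 78.4 and 73.3 under siMePCE in Flp-In, against 110.2 and 120.2 under siNC and 173 and 208 under siMePCE in AsiSI (edgeR log2 difference 0.78, SE 0.132, adjusted p = 0.00106). ID2 (difference 0.73) lost its call without Flp-In siNC 1, siNC 2 or siMePCE 2, or AsiSI siNC 1, siNC 2 or siMePCE 1 (adjusted p = 0.0611 to 0.168). In the Wnt list 3 of 36 were higher and 2 lower, and LEF1, a transcription factor of the pathway, measured 20.2 and 22.3 CPM under siNC and 68.2 and 69.4 under siMePCE in Flp-In, against 18 and 14.6 under siNC and 24.5 and 24.6 under siMePCE in AsiSI (edgeR log2 difference -1.11, SE 0.160, adjusted p = 0.000238). The receptors LGR4 and LGR5 had differences of 0.92 and 1.13, with overlapping genes at 5.92 and 1.19 times their counts. LGR4 lost its call without Flp-In siNC 2 (adjusted p = 0.064). LGR5 lost its call without Flp-In siNC 1 (adjusted p = 0.0606). DKK2, a secreted Wnt antagonist, was the third higher and FZD8, a Frizzled receptor, the other lower gene. DKK2 (difference 0.89) lost its call without Flp-In siNC 2 or siMePCE 1, or AsiSI siNC 2 or siMePCE 1 (adjusted p = 0.116 to 0.419). FZD8 (difference -1.22) lost its call without Flp-In siNC 1, siNC 2 or siMePCE 1, or AsiSI siNC 2 (adjusted p = 0.0508 to 0.113). The higher count was 1 without Flp-In siNC 2. In the IGF list 2 of 18 were higher and 1 lower, among them IGFBP5, an IGF-binding protein, at 29.1 and 26.9 CPM under siNC and 2.15 and 2.19 under siMePCE in Flp-In, against 14 and 9.09 under siNC and 7.07 and 4.82 under siMePCE in AsiSI (difference 2.73, overlapping gene at 1.39 times its counts). IGF1 was the other higher gene and IRS1, an adaptor of the IGF receptor, the lower one. The overlapping HELLPAR held 2.47 times the counts of IGF1. IGF1 (difference 0.66) lost its call without Flp-In siNC 1, siNC 2 or siMePCE 1, or AsiSI siNC 1, siNC 2 or siMePCE 2 (adjusted p = 0.0535 to 0.15). IRS1 (difference -0.45) lost its call without Flp-In siNC 1, siNC 2, siMePCE 1 or siMePCE 2, or AsiSI siNC 2 or siMePCE 1 (adjusted p = 0.068 to 0.16). F3, tissue factor, was the 1 call among 18 YAP and TEAD targets, at 19.3 and 20.3 CPM under siNC and 4.99 and 5.09 under siMePCE in Flp-In, against 7.21 and 6.22 under siNC and 5.18 and 3.87 under siMePCE in AsiSI (difference 1.41).

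Oestrogen receptor genes were examined because 4-OHT binds the receptor. Of 17 tested, 1 was higher and 2 lower (17.6% called, against 4.41% over all genes and 9.83% at a mean of 20 to 100 CPM). ESR1 measured 12.9 and 13.5 CPM under siNC and 9.79 and 12.04 under siMePCE in Flp-In, against 60.4 and 60.2 under siNC and 108 and 113 under siMePCE in AsiSI (edgeR log2 difference 1.15, SE 0.149, adjusted p = 8.58e-05), and the overlapping SYNE1 held 5.61 times its counts. Whether reads of the AsiSI-ER transgene were counted in ESR1 was not tested. RARA, the retinoic acid receptor alpha, measured 41.4 and 41.1 CPM under siNC and 32.4 and 29.1 under siMePCE in Flp-In, against 71.2 and 77.1 under siNC and 32.6 and 30.8 under siMePCE in AsiSI (edgeR log2 difference -0.80, SE 0.139, adjusted p = 0.00133). CCND1 (difference -0.50) lost its call without Flp-In siNC 1, siNC 2 or siMePCE 1, or AsiSI siNC 2 or siMePCE 2 (adjusted p = 0.0771 to 0.19).

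Inflammatory genes were called as single members. Shares called were 8% for the NF-kB list and 10.3% for interferon-stimulated genes. Over all genes 4.41% were called, and 9.83% at a mean of 20 to 100 CPM, so both shares are near the background. SOD2, the mitochondrial superoxide dismutase, measured 179 and 170.0 CPM under siNC and 409 and 389 under siMePCE in Flp-In, against 192 and 163 under siNC and 240.4 and 243 under siMePCE in AsiSI (edgeR log2 difference -0.75, SE 0.119, adjusted p = 0.000563). It was called lower and REL, an NF-kB subunit, higher among 25 genes of the NF-kB list. REL (difference 0.78) lost its call without Flp-In siNC 1, siMePCE 1 or siMePCE 2, or AsiSI siNC 2 or siMePCE 1 (adjusted p = 0.0624 to 0.133). CXCL8, a neutrophil chemokine chosen after its values were seen, measured 5.92 and 4.98 CPM under siNC and 9.20 and 8.31 under siMePCE in Flp-In, against 82.8 and 42.2 under siNC and 644 and 611 under siMePCE in AsiSI. Its difference of 2.65 was not called in edgeR (adjusted p = 0.0676), but was called by DESeq2 (adjusted p = 6.05e-06) and without robust estimation of the prior (adjusted p = 1.59e-05). BIRC3 and TRAF1, NF-kB targets chosen likewise, rose in both lines with differences of 0.57 and -0.30 (edgeR adjusted p = 0.317 and 0.635). BIRC3 was called with a replicate block (edgeR adjusted p = 0.0225), and an overlapping gene held 0.823 times its counts. Of 29 interferon-stimulated genes 3 were higher, IFI35, IFIT1 and IFIT3, and overlapping LIPA held 13.7 and 7.53 times the counts of IFIT1 and IFIT3. IFI35 (difference 2.03) lost its call without Flp-In siNC 1 or siMePCE 2, or AsiSI siNC 2 or siMePCE 2 (adjusted p = 0.107 to 0.21). IFIT1 (difference 1.74) lost its call without Flp-In siNC 1 or siMePCE 1, or AsiSI siNC 2 or siMePCE 1 (adjusted p = 0.0571 to 0.1). IFIT3 (difference 0.96) lost its call without Flp-In siNC 1, siNC 2, siMePCE 1 or siMePCE 2, or AsiSI siNC 2 or siMePCE 2 (adjusted p = 0.0602 to 0.211).

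Among 17 heat shock and metallothionein genes 3 were higher and 1 lower (23.5% called). Over all genes 4.41% were called, and 9.83% at a mean of 20 to 100 CPM. For the cholesterol synthesis genes given below the share was 8%, near that background. HSPA1A, an inducible HSP70, measured 13.6 and 20.6 CPM under siNC and 10.1 and 8.38 under siMePCE in Flp-In, against 15.6 and 25.3 under siNC and 37.8 and 30.7 under siMePCE in AsiSI (edgeR log2 difference 1.63, SE 0.314, adjusted p = 0.00971), and HSPA1B, its near-identical copy chosen after its values were seen, had a difference of 1.75 (adjusted p = 0.0919), so the pair is uncertain as single genes. HSPA1B was called by DESeq2 (adjusted p = 0.0188) and by edgeR without robust estimation of the prior (adjusted p = 0.00154). The overlapping SNHG32 held 1.78 times the counts of HSPA1B. HSPA6, another HSP70, measured 0.326 and 0.574 CPM under siNC and 0.446 and 0.124 under siMePCE in Flp-In, against 0.375 and 0.646 under siNC and 7.70 and 4.82 under siMePCE in AsiSI (difference 4.25), low everywhere except AsiSI siMePCE, with an overlapping gene at 2.14 times its counts. MT2A, a metallothionein, measured 452 and 383 CPM under siNC and 273 and 235 under siMePCE in Flp-In, against 335 and 339.8 under siNC and 355 and 303 under siMePCE in AsiSI (edgeR log2 difference 0.68, SE 0.134, adjusted p = 0.00393). HSPE1, a mitochondrial chaperonin, had a difference of -0.91 and an overlapping gene at 12.97 times its counts. Of 25 cholesterol synthesis genes 2 were higher, led by SREBF1, a regulator of lipid synthesis, at 106 and 90.03 CPM under siNC and 17.8 and 12.5 under siMePCE in Flp-In, against 23.04 and 22.3 under siNC and 10.9 and 9.10 under siMePCE in AsiSI (difference 1.51, overlapping gene at 1.13 times its counts).

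The remaining lists with calls gave 1 or 2 each, and shares near those over all genes are no result about a list. Of 29 genes of glycolysis and hypoxia 2 were higher (6.9% called, against 4.41% of all genes and 6.6% of protein-coding ones), EGLN3, a prolyl hydroxylase that acts on HIF, and PFKFB4, which sets fructose 2,6-bisphosphate levels. EGLN3 measured 35.7 and 33.96 CPM under siNC and 15.1 and 14.8 under siMePCE in Flp-In. In AsiSI it measured 42.1 and 33.3 under siNC and 28 and 27.1 under siMePCE. The overlapping SPTSSA held 0.590 times its counts. EGLN3 (difference 0.76) lost its call without Flp-In siNC 1 (adjusted p = 0.0637). PFKFB4 (difference 0.72) lost its call without Flp-In siNC 1, siNC 2, siMePCE 1 or siMePCE 2, or AsiSI siNC 1, siNC 2 or siMePCE 1 (adjusted p = 0.0633 to 0.154). Of 35 HOX genes HOXD10, given above, and HOXC4 were higher (5.71% called), and a gene overlapping HOXC4 held 1.85 times its counts. HOXC4 (difference 0.70) lost its call without Flp-In siNC 1, siNC 2, siMePCE 1 or siMePCE 2, or AsiSI siNC 2 or siMePCE 1 (adjusted p = 0.0721 to 0.13). SPP1, osteopontin, was the 1 call among 17 genes of the osteoblast lineage (5.88%), and an overlapping gene held 1.08 times its counts. Of 15 ERK feedback genes 2 were lower (13.3% called), CCND1, given with the oestrogen receptor targets, and PHLDA1. PHLDA1 (difference -0.63) lost its call without Flp-In siNC 1, siNC 2, siMePCE 1 or siMePCE 2, or AsiSI siNC 1, siNC 2, siMePCE 1 or siMePCE 2 (adjusted p = 0.0633 to 0.223).

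Repair genes were examined because the study concerns repair. Of 33 homologous recombination genes 1 was higher and 2 lower (9.09% called, median difference -0.20). Over all genes 4.41% were called, and 9.83% at a mean of 20 to 100 CPM, so the share is near the background. The median difference was -0.02 over all genes and -0.10 at that level, and -0.16 for protein-coding genes of 5 to 50 kb at that level. RAD51B (ENSG00000182185, chromosome 14, 68286496 to 69196935, plus strand), a homologous recombination gene, measured 448 and 419.7 CPM under siNC and 250.1 and 269 under siMePCE in Flp-In, against 346 and 348 under siNC and 339 and 353 under siMePCE in AsiSI (edgeR log2 difference 0.74, SE 0.108, adjusted p = 0.000264), and it fell in Flp-In only. BLM, a helicase, and its partner TOP3A had differences of -0.53 and -0.55. BLM lost its call without Flp-In siNC 1, siNC 2, siMePCE 1 or siMePCE 2, or AsiSI siNC 1 or siMePCE 2 (adjusted p = 0.0692 to 0.166). TOP3A lost its call without Flp-In siNC 1, siNC 2, siMePCE 1 or siMePCE 2, or AsiSI siNC 1 or siMePCE 2 (adjusted p = 0.052 to 0.168). Of 20 end-joining genes 1 was lower, NHEJ1, and of 31 R-loop factors 1 was lower, SSRP1, shares of 5% and 3.23% that are also near it. NHEJ1 (difference -0.59) lost its call without Flp-In siNC 1, siNC 2, siMePCE 1 or siMePCE 2, or AsiSI siNC 2 or siMePCE 2 (adjusted p = 0.0538 to 0.201). SSRP1 (difference -0.41) lost its call without Flp-In siNC 1, siNC 2 or siMePCE 1, or AsiSI siNC 2, siMePCE 1 or siMePCE 2 (adjusted p = 0.0778 to 0.185).

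The cell cycle lists gave few calls. Shares called were 2.5% for replication and E2F, 11.1% for histone and 7.69% for mitochondrial genome genes. Over all genes 4.41% were called, and 9.83% at a mean of 20 to 100 CPM. In edgeR 0 of 28 genes of G2 and mitosis and 0 of 29 p53 targets were called (6 and 5 at an unadjusted p under 0.05, 2 and 0 by DESeq2), and 1 of 40 replication and E2F genes was lower. MCM5, a subunit of the replicative helicase, measured 119.5 and 119 CPM under siNC and 65.03 and 61.2 under siMePCE in Flp-In, against 103 and 102 under siNC and 35.7 and 32.9 under siMePCE in AsiSI (edgeR log2 difference -0.65, SE 0.122, adjusted p = 0.00257). CDC20 and TYMS, chosen after their values were seen, fell in both lines with differences of 0.03 and 0.09 (SE 0.154 and 0.124). The overlapping ENOSF1 held 0.790 times the counts of TYMS. For the p53 targets CDKN1A and MDM2, chosen likewise, the differences were -0.04 and 0.19 (SE 0.122 and 0.123). Of 27 replication-dependent histone genes tested, which are near-identical copies and uncertain as single genes, 1 was higher and 2 lower. The higher one, H2AC6, had an overlapping gene with 10.7 times its counts. Of 13 mitochondrial genes MT-CO3 was higher, at 4161 and 4386 CPM under siNC and 2549 and 2279 under siMePCE in Flp-In, against 5703 and 6096 under siNC and 4553 and 5161 under siMePCE in AsiSI (difference 0.54), with an overlapping gene at 1.65 times its counts.

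Long genes were called more often. Among protein-coding genes over 200 kb, 219 of 1503 were called (14.6%), 154 higher and 65 lower in AsiSI. Between 50 and 200 kb the share was 7.74%, between 5 and 50 kb 5.32% and under 5 kb 2.34%. Longer genes also had more counts, with median levels of 40.4, 30.6, 11.8 and 3.59 CPM in the same order. At a mean of 20 to 100 CPM, 125 of 681 genes over 200 kb were called (18.4%), 95 higher and 30 lower. In that range of levels 218 of 2890 genes of 5 to 50 kb were called (7.54%), 40 higher and 178 lower. MPP7 (length 283 kb), GUCY1A2 (344 kb) and RAD51B (910.4 kb) are among the long genes with higher values, and FAT3 (672 kb) and ADAMTS12 (368 kb) among those with lower ones. Counts cover introns and exons alike, and the part of unspliced RNA in this pattern was not tested.

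**Figure D5:**
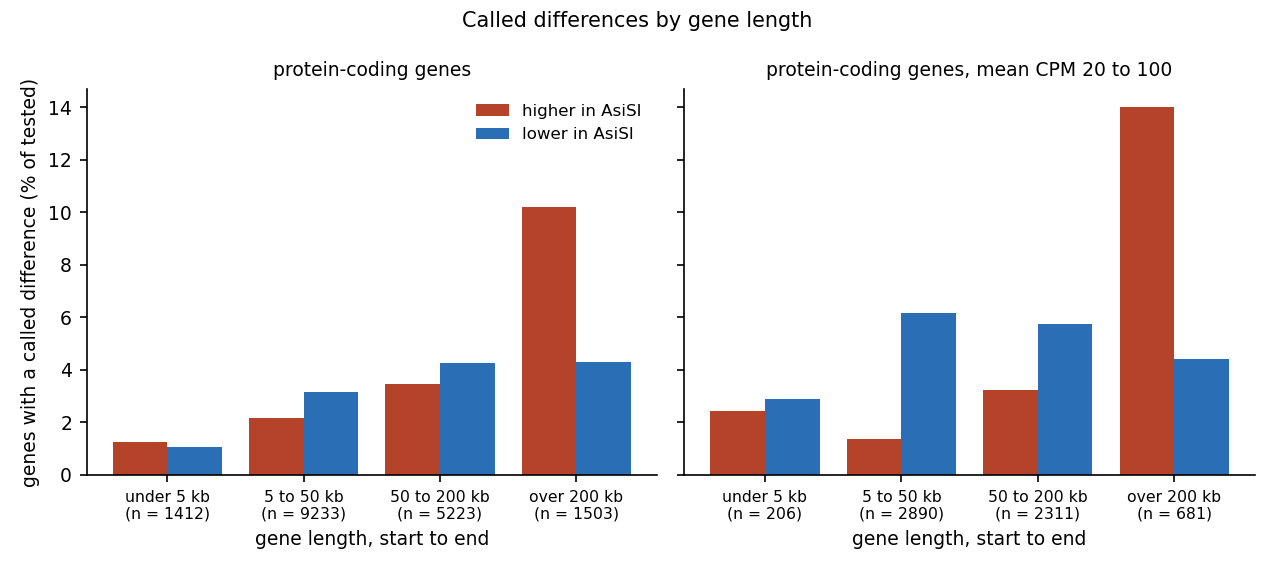
Share of protein-coding genes called higher (red) or lower (blue) in AsiSI (% of tested, y axis) by gene length, for all levels (left) and for a mean of 20 to 100 CPM (right). Genes over 200 kb have the largest share called higher, 10.2% on the left and 14% on the right.

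By type, 320 of 9954 long noncoding RNA genes were called higher and 107 lower, against 555 and 592 of 17371 protein-coding genes. Their median levels were 1.41 and 16.2 CPM, and the direction of calls moved with the level. At 1 to 5 CPM 3.02% of genes were called higher and 0.622% lower, at 20 to 100 CPM 4.50% and 5.33%, and over 100 CPM 4.03% and 6.7%. The share called ran from 2.72% on chromosome 19 to 5.73% on chromosome 8 among chromosomes 1 to 22 and X. Of 11936 genes tested that had no type, 239 were called higher and 64 lower.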

How the data were processed

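Total RNA of 8 libraries was sequenced after removal of ribosomal RNA with a directional kit, per the labels' protocols. Per the submitters' processing notes, featureCounts, STAR, SAMtools, FastQC and Trim Galore were used with hg19 (versions not given). Raw counts were deposited for 80311 genes, each counted over its whole interval, introns included (listed length equal to start to end in 80311 rows). Strand and overlap settings are not given in the sources used here, so overlapping and antisense genes cannot be told apart.

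Genes were kept with filterByExpr by group (43321) and TMM-scaled, and a model with a mean per group was fitted over all 8 libraries with the robust quasi-likelihood test of edgeR 4.0.16 (R 4.3.3). Robust estimation was adopted because earlier results of these data used it, after a fit without it had been seen. Calls needed a p under 0.05 after Benjamini-Hochberg adjustment over all genes. SE is the log2 value over the square root of F. Overlap ratios compare total counts of genes whose coordinates touch. DESeq2 1.42.0 and other alternatives are in the closing section. On simulated counts for 43321 genes, 17.9%, 70.1% and 90.9% of differences of 1.5-, 2- and 4-fold were recovered, and 7.75% of calls were false. The 200 changed genes all had a mean of at least 1 CPM, whereas 16882 of the genes tested lay under 1 CPM. No other difference between the groups was simulated. Replicates differed beyond sampling noise (chi-square per degree of freedom 4.52 to 11.3).

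Members and lists were chosen with earlier results of these data known. Named were MEPCE, RN7SK, MYC, the 10 highest and 10 lowest differences and 4 genes per opposite arrangement under the limits given in the report (the 4 siMePCE minus siNC differences per line, on the log2(CPM + 0.1) scale, did not overlap between the lines), and up to 3 called members per list by adjusted p. Of the called genes so chosen, 4 are not reported here. Symbols were present for 50.8% of rows, and 925 of 929 list symbols matched. Gene types came from GENCODE 29, which held a type for 55617 rows, and otherwise from RefSeq by symbol. No type was found for 11936 of the genes tested. Promoters came from RefSeq (GRCh38.p14).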

Additional observations from a re-analysis of the deposited data

Results flagged for a closer look

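The results below passed the edgeR test of the difference between the 2 lines' siMePCE effects. This held for 1912 genes, and for 87 of the genes chosen by the rule for named genes, of which 83 are given. The log2 differences below are AsiSI minus Flp-In, a contrast in which 4-OHT and the line cannot be told apart.

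The highest values belonged to HSPA6, IGFBP5, PPP1R1C, HOXD10, COL3A1, MIR9-1HG, LINC01705 and MPP7, at 4.25, 2.73, 2.72, 2.66, 2.64, 2.29, 2.25 and 2.07. Next came IFI35, MAFTRR, RUNX3, LINC01701, RAC2, IFIT1, GUCY1A2 and SREBF1, with log2 differences of 2.03, 1.94, 1.92, 1.86, 1.80, 1.74, 1.56 and 1.51. For COL5A1, F3, COL11A1, ESR1, LGR5, EGR1, IFIT3 and LGR4 they were 1.46, 1.41, 1.38, 1.15, 1.13, 1.06, 0.96 and 0.92. Lower values, still above 0, were found for SPP1, INHBA, REL, EGLN3, RAD51B, ID2, PFKFB4 and HOXC4, namely 0.89, 0.78, 0.78, 0.76, 0.74, 0.73, 0.72 and 0.70. MT2A, IGF1, H2AC6, MLLT3 and MT-CO3 followed at 0.68, 0.66, 0.60, 0.57 and 0.54.

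The lowest values were those of ADAMTS1, CLDN1, LINC02663, FAT3, MYC, LONRF2, FAM135B and FAP, at -1.92, -1.90, -1.70, -1.61, -1.56, -1.55, -1.55 and -1.54. MMP9, APOBEC3B, CHAC1, SUSD5, H2BC13, CDH11, KLF6 and LEF1 had log2 differences of -1.52, -1.52, -1.38, -1.37, -1.27, -1.26, -1.22 and -1.11. In the same direction lay PAPPA2, ASNS, ADAMTS12, NAT10, HSPE1, BYSL, SNHG17 and FOSL2, at -1.06, -0.99, -0.98, -0.92, -0.91, -0.90, -0.84 and -0.84. Smaller differences were those of RARA, H2BC14, SOD2, GART, MCM5, PHLDA1, SNHG3 and IARS1, at -0.80, -0.79, -0.75, -0.74, -0.65, -0.63, -0.59 and -0.59. NHEJ1, AARS1, MAX, WDR43, TOP3A, CTPS1, BLM and YARS1 lay at -0.59, -0.59, -0.57, -0.55, -0.55, -0.53, -0.53 and -0.53. The smallest were those of CCND1, ODC1, SLC7A5, IRS1, SSRP1 and SNHG14, at -0.50, -0.50, -0.48, -0.45, -0.41 and -0.40.

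Of the 87 genes, 24 had an overlapping gene with at least 0.5 times their counts. All 87 kept their direction when each library was left out in turn, and 37 lost their call without at least 1 library.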

How the results depend on the processing

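Leaving out each library in turn gave 680 to 1884 genes with a called difference, 493 to 1138 higher and 187 to 804 lower in AsiSI. The lowest of these were all without Flp-In siNC replicate 1, and a lone remaining library was assumed to vary like the other groups. Genes called higher in Flp-In numbered 5058 to 8166. Of the 87 named genes with a call, 50 kept it under every refit, 52 without Flp-In siNC replicate 1 and 61 without Flp-In siMePCE replicate 1. The causes were not tested.

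An absolute log2 value of at least 1 left 775 differences, 605 higher and 170 lower, 8341 effects in Flp-In (3865 higher, 4476 lower) and 7315 in AsiSI (3873 and 3442). Restriction to genes without an overlapping gene of 0.1 of their counts left 661 differences (346 and 315), 5380 effects in Flp-In (2635 and 2745) and 4997 in AsiSI (2353 and 2644), since fewer genes qualify. With a replicate block the count was 3089, 1431 of them lower. Deviations of same-numbered libraries correlated at 0.04 to 0.24 across genes, over 0.1 for 4 of 6 pairs of groups, and nothing in the labels ties the numbers to a shared batch, so the numbers were not used as pairs. DESeq2 gave 2635 calls, no count filter 2377, a filter of 1 CPM in 2 libraries 2455, DESeq2 size factors 1941, and leaving out the most abundant noncoding and mitochondrial genes 1914. A prior not estimated robustly, added after the data were seen, gave 1808. Under it lower calls went from 5 to 3 for aminoacyl-tRNA synthetases, 2 to 1 for ERK feedback and 1 to 0 for R-loop factors, and from 20 to 18 for ribosome biogenesis. No scaling moved the median of all genes by over 0.1. At this depth, simulated differences of 1.5-fold were recovered in 17.9% of changed genes, all with a mean of at least 1 CPM, so many small differences would be missed.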
